A study of Mus musculus with 8 samples.

Results

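FOXO1 occupancy was compared with occupancy of the glucocorticoid receptor (GR) in livers of calorically restricted mice. The members were the FOXO1 peaks of restricted liver, called by the authors on 2 merged ChIP-seq libraries, and they were set against the GR peaks of each of the 2 restricted-liver GR libraries. Peaks with the same chromosome, start and end were reduced to 1 region with the summit of highest fold enrichment. This left 8068 FOXO1 regions of the 166823 regions in all 7 lists, beside 22707 GR regions in replicate 1 and 18747 in replicate 2. On chromosomes 1 to 19, X and Y, 8053 FOXO1 regions, 22704 GR regions and 18744 GR regions remained.

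All 8 libraries came from whole liver of C57BL/6J mice on regular chow. The methods name males, collection at the start of the dark phase, and a mix of antibodies for FOXO1. The restricted animals (cal. res.) had been stepped down to a reduced daily ration given at lights off. The other 4 GR libraries were 2 from night-fed controls (ctrl.) and 2 from night-fed animals given corticosterone (CORT). They served to compare overlap and summit position and to divide the FOXO1 regions that lacked GR in cal. res. livers. FOXO1 was mapped in cal. res. livers and not in ctrl. or CORT livers in these data, so no change of FOXO1 with diet could be read. The study asked whether both factors occupy the same sites when food is short. Because the FOXO1 libraries had been merged before peak calling, FOXO1 values have no replicate error, and intervals below cover counting error only.

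GR is a nuclear receptor that binds DNA once a glucocorticoid such as corticosterone occupies it, at a palindromic glucocorticoid response element (GRE) or at looser sites beside other factors. FOXO1 is a forkhead factor that insulin signalling, through AKT, keeps out of the nucleus. In the fasted liver it enters the nucleus and acts on genes of glucose production and fat use. Many of these genes, Pck1 and G6pc among them, are known to answer to both hormones.

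The lists carried the mark of hepatocytes. Of 8 hepatocyte marker genes, 8 held a region shared by FOXO1 and GR, and Alb held 8 such regions. None of 6 Kupffer cell, 5 stellate cell, 5 cholangiocyte and 4 lymphocyte markers had a FOXO1 region, and 4 of 5 endothelial markers did. Over all protein-coding genes 17.2% had any FOXO1 region, so 0 in lists this short is near the background. Stab2, Kdr and Lyve1 each had 1 region that lacked GR in both cal. res. libraries, and the strongest FOXO1 regions of these genes stood at percentiles 58.1, 25.9 and 9.14 of the FOXO1 list. Pecam1, at percentile 79.7, and Stab2 also each had 1 region shared with GR. These were 2 of 5 endothelial markers, against 12.6% of all protein-coding genes with a shared region. A FOXO1-alone region was held by 3.86% of all these genes. The endothelial part in the FOXO1-alone and shared classes was not tested.

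The regions below are examples for the comparisons that follow. They are 120 bp of the mm10 plus strand centred on the summit, and capitals mark matches on either strand to the forkhead motif TGTTTAC, its variant TGTTTGC, the insulin response element TGTTTTG, the GR half-site AGAACA or the palindromic GRE. The sequences are those of the RefSeq assembly of this build, matches may overlap (AGAACA can lie inside a GRE), and a match is not a proven site. The first 5 are FOXO1 regions shared with GR in which a forkhead or GR element lies near the summit, the next 2 are the leading shared regions by rank, and the last 2 are strong regions with 1 factor alone.
Pdk4 promoter, chr6:5496569-5496688, shared: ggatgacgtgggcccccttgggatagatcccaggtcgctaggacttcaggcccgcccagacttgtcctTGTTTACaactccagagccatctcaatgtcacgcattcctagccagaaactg
Txnip promoter, chr3:96557764-96557883, shared: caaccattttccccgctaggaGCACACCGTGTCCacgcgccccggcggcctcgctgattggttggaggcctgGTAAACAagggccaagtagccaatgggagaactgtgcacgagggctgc
Foxo3 intron, chr10:42251374-42251493, shared: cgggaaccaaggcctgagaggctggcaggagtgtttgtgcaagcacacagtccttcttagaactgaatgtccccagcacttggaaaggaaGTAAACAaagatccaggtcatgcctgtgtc
Per1 promoter, chr11:69094817-69094936, shared: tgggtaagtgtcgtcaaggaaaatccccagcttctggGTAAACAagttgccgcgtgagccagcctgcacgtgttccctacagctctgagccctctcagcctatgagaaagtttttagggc
Per1 intron, chr11:69097010-69097129, shared: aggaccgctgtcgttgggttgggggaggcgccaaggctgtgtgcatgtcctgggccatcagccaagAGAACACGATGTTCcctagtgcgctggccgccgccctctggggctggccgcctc
Zbtb16 intron, chr9:48723674-48723793, shared: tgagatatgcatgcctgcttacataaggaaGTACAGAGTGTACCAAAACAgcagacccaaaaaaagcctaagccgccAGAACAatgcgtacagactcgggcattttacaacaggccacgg
Upstream of Ttpal, chr2:163596105-163596224, shared: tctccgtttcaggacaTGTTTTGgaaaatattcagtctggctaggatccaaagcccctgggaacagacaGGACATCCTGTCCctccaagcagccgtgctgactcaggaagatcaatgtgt
Nearest to Khdrbs3, chr15:69365609-69365728, FOXO1-alone: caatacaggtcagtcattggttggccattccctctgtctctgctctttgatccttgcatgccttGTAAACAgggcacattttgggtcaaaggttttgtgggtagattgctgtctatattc
Upstream of Trim2, chr3:84325019-84325138, GR-alone: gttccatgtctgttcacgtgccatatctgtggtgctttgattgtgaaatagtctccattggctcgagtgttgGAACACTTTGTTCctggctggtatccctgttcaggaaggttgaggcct

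Most FOXO1 regions lay where GR was also called. Of 8053, 5999 overlapped a GR region in both cal. res. libraries by at least 1 bp and are called shared, which is 74.5% (95% exact Clopper-Pearson interval 73.5 to 75.4). Another 934 (11.6%) overlapped GR in 1 library, of which 672 were in replicate 1, and 1120 (13.9%) overlapped neither and are called FOXO1-alone. Seen from GR, 15168 merged sites were present in both libraries, 5855 of them (38.6%) held FOXO1, and 9313 did not and are called GR-alone. The 10679 GR sites found in 1 library held FOXO1 in 8.52% of cases. The GR lists are longer than the FOXO1 list and were called at a looser threshold, so these shares depend on list length. With every GR list reduced to as many regions as FOXO1 has, 50.1% of FOXO1 regions were shared. The overlap was also found with GR of unrestricted animals. Of the shared regions, 98.7% and 72.4% also overlapped GR in ctrl. replicates 1 and 2, and 95.8% and 98.5% in CORT replicates 1 and 2. Of all FOXO1 regions, 7156 and 4669 overlapped ctrl. GR, 6671 and 6261 cal. res. GR, and 6695 and 7119 CORT GR. These lists differ in length, so the counts do not rank the conditions.

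Overlap was more frequent at stronger sites of either factor, apart from a slight dip to 62.5% in the FOXO1 decile above the lowest. In the lowest FOXO1 decile by fold enrichment, 63.5% of 817 regions were shared, and in the highest, 90.9% of 803 (88.7 to 92.8). FOXO1-alone regions made up 17.6% of the lowest and 6.10% of the highest decile. For GR, the share of regions with FOXO1 went from 6.83% in the lowest decile to 79.8% in the highest for replicate 1, and from 8.89% to 82.0% for replicate 2. The range open to each list is set by the length of the other, so the slopes were not compared.

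**Figure D1:**
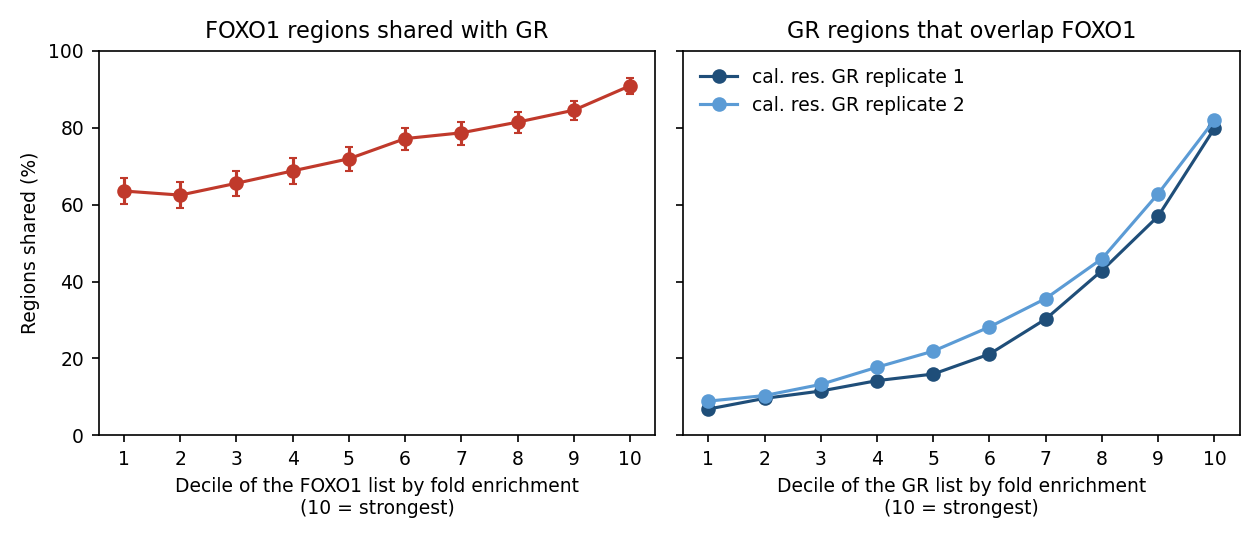
Share of regions (%) held by both factors, by decile of fold enrichment within each list (10 is the strongest). Left, FOXO1 regions shared with both cal. res. GR libraries, with 95% exact intervals. Right, GR regions of each library that overlap FOXO1. Both climb with strength, to 90.9% for FOXO1 and to 79.8% and 82.0% for GR.

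FOXO1 peaks were stronger where GR was present. Fold enrichment was ranked within each list as a percentile, since it cannot be compared between lists. The median FOXO1 percentile was 55.2 (quartiles 29.2 and 78.7) in shared regions and 37.4 (18.2 and 61.5) in FOXO1-alone regions, a gap of 17.8 points. The gap was 15.7 points within promoters and 18.4 points in distal regions. Rebuilt from fold and p, the median summit pileup was 26 fragments in shared and 23 in FOXO1-alone regions over similar backgrounds of 3.44 and 3.34 fragments. Shared regions were also wider, with a median of 443 bp against 341 bp. On the GR side the gap between regions with and without FOXO1 was 38.7 points in replicate 1 and 37.9 points in replicate 2. These lists are longer, and with equal numbers of regions the gaps were 25.8 points for FOXO1 and 28.2 points for GR. With only regions of at most 1000 bp in each list they were 9.62 points for FOXO1 and 36.7 points for GR.

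Within shared regions, the order of FOXO1 strength followed that of GR loosely. Across the 5999 regions, Spearman's rho of FOXO1 fold enrichment with GR was 0.36 for replicate 1 and 0.35 for replicate 2, while the GR replicates correlated with each other at 0.86. These are descriptions across regions, and regions are not independent replicates. The labels do not say whether the FOXO1 and GR libraries came from the same livers. Values in promoters (0.31 and 0.34) and in distal regions (0.35 and 0.35) were close to those of the whole.

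FOXO1 and GR summits nearly coincided. The median distance from the FOXO1 summit to the GR summit was 33 bp (quartiles 15 and 69) in replicate 1 and 37 bp (17 and 79) in replicate 2. The summits of the 2 GR libraries, which measure the same factor, lay 24 bp apart (10 and 54) at the same regions. FOXO1 therefore sat 11 bp farther from GR, on the mean of both medians, than the GR replicates sat from each other. Within 50 bp lay 65.7% and 60.7% of FOXO1 to GR pairs, against 73.6% of the GR replicate pairs.

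Distances were wider at promoters. There the medians were 45 and 52 bp for FOXO1 to GR and 36 bp between the GR replicates, while in distal regions they were 30 and 34 bp against 22 bp. They narrowed with FOXO1 strength, from 39 and 44 bp in the weakest tercile of the FOXO1 list to 29 and 32 bp in the strongest, and the GR replicate distance narrowed along with them, from 29 to 20 bp. At shared promoters, the median position relative to the start of transcription was similar for both factors. The median FOXO1 summit was 93 bp upstream, and the GR summits were 93 and 91 bp upstream.

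**Figure D2:**
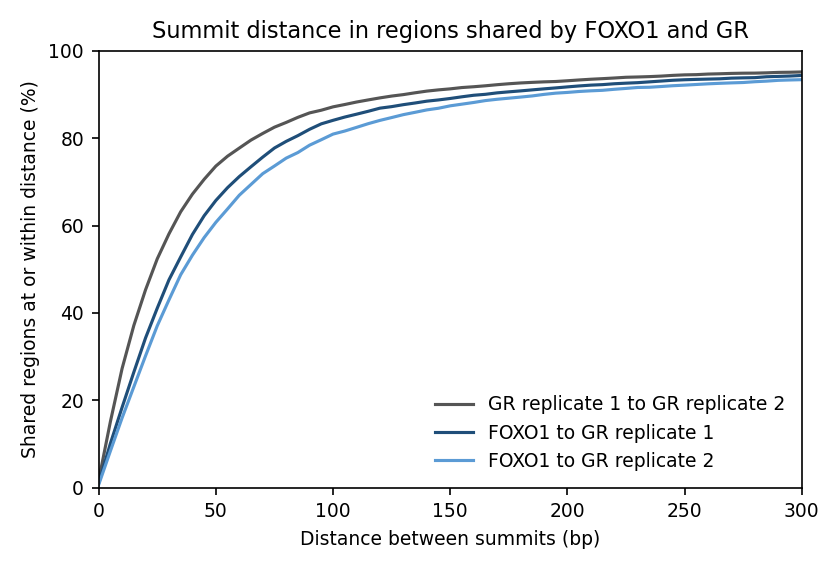
Cumulative share (%) of the 5999 shared regions against the distance between summits (bp). The lines show FOXO1 to each cal. res. GR library and the 2 GR libraries to each other. The GR replicate line lies above both FOXO1 lines, with 73.6% of regions within 50 bp against 65.7% and 60.7%.

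The FOXO1 to GR distance was not shown to be particular to GR of restricted animals. Measured against every GR list, the medians were 33 and 37 bp for cal. res., 38 and 46 bp for ctrl. and 40 and 40 bp for CORT. The cal. res. values were the lowest, but their mean lay only 6 bp below that of the other 4 libraries, with a two-sided exact permutation p of 0.2 over 15 arrangements. The smallest p this design allows is 0.067. Over the 4240 FOXO1 regions present in all 6 GR lists, the medians were 33 and 36 bp for cal. res., 35 and 45 bp for ctrl. and 36 and 38 bp for CORT.

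At the lists' own thresholds, GR-alone sites lay at promoters more often than shared or FOXO1-alone regions did. Summits fell within 1 kb of an annotated transcription start in 22.1% of shared regions (21.0 to 23.2), 21.2% of FOXO1-alone regions (18.8 to 23.7) and 35.0% of GR-alone sites (34.1 to 36.0). GR-alone sites exceeded shared regions by 12.9 percentage points (95% Newcombe interval 11.5 to 14.4), while FOXO1-alone and shared regions differed by -0.93 points, with an interval from -3.45 to 1.77. Both differences depended on the thresholds. With equal numbers of regions per list, GR-alone sites exceeded shared regions by 5.42 points and FOXO1-alone regions exceeded them by 12.7 points, and with GR regions of q at most 1e-05 the values were 7.63 and 8.62 points. FOXO1-alone regions were then not less often at promoters than GR-alone sites. Introns held 43.9% of shared, 41.6% of FOXO1-alone and 38.8% of GR-alone summits. Mean GC content of the 200 bp around the summit was 49.5% in shared, 50.6% in FOXO1-alone and 53.6% in GR-alone regions.

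The FOXO1-alone class was mixed. Of its 1120 regions, 612 (54.6%) had a GR peak in at least 1 of the ctrl. or CORT lists, and 508 had none in any of the 6 lists. The former lay at promoters in 29.9% of cases (26.3 to 33.7) and the latter in 10.6% (8.09 to 13.6). All 33 FOXO1-alone regions with a rebuilt background above 20 fragments were among the 508, and no shared region had such a background. Backgrounds this high were 1 of 934 in the class found in 1 GR library. Repeat-masked sequence covered most of the window in 7.86% of FOXO1-alone and 2.77% of shared regions. Their part in the class was not tested. Most FOXO1-alone regions were also far from GR, with a median gap of 16.0 kb to the nearest cal. res. GR region and 107 of 1120 within 1 kb.

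The forkhead motif TGTTTAC was frequent in FOXO1 regions and rare in GR-alone sites. Within the 200 bp centred on each summit, TGTTTAC in either orientation was found in 24.6% of FOXO1-alone regions (22.1 to 27.2), 16.6% of shared regions (15.7 to 17.6) and 2.87% of GR-alone sites (2.54 to 3.23). In windows of the same length 1 kb to either side the shares were 3.26%, 2.79% and 2.83%. The GR-alone value joined distal sites, at 3.73% (3.27 to 4.24) over flanks of 2.89%, and promoters, at 1.26% (0.903 to 1.70) under flanks of 2.73%. Shared regions thus exceeded GR-alone sites by 13.8 points (12.8 to 14.8). Measured at the GR summit, shared regions held the motif in 12.9% of cases (12.03 to 13.7), which is still above GR-alone sites. With the FOXO1 summit for shared regions, the difference was 13.1 points within promoters and 13.6 points in distal regions. With the GR summit it was 8.33 and 10.1 points.

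The excess of TGTTTAC in FOXO1-alone over shared regions, 7.92 points (5.30 to 10.7), depended on FOXO1 strength. In the weakest FOXO1 tercile, 22.9% of 494 FOXO1-alone and 9.15% of 1694 shared regions held it. In the middle tercile, 29.9% of 395 FOXO1-alone and 13.1% of 2021 shared regions held it. In the strongest tercile the order was the other way, with 19.05% of 231 FOXO1-alone (14.2 to 24.7) and 25.4% of 2284 shared regions (23.6 to 27.2). These intervals overlap, and the difference was not tested. The share was 29.1% in FOXO1-alone regions that had a GR peak in a ctrl. or CORT list and 19.1% in those without a GR peak in any list.

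Other elements were divided differently among the classes. The variant TGTTTGC was more frequent in shared regions, at 10.5%, than in FOXO1-alone regions, at 4.38%, where flanks gave 4.11% and 3.75%. GR-alone sites held it in 6.66% of cases (6.16 to 7.18), above their flanks at 3.83%, so this sequence was not at background there. The palindromic GRE, GNACANNNTGTNC, occurred in 3.70% of shared regions, 3.32% of GR-alone sites and 0.179% of FOXO1-alone regions, which is 2 of 1120. These windows were centred on the FOXO1 summit in shared regions and on the GR summit in GR-alone sites. At the GR summit, shared regions held the GRE in 4.68% of cases, 1.37 points above GR-alone sites (0.731 to 2.03). The half-site AGAACA was found in 21.1% of shared and 14.0% of FOXO1-alone regions, and it is common enough that flanks held it in 16.9% and 16.0%. At the GR summit, 23.6% of shared regions and 19.3% of GR-alone sites held it. TTGCNNAA, a C/EBP element of hepatocyte factors, occurred in 22.6% of shared, 17.2% of GR-alone and 11.7% of FOXO1-alone regions. At the GR summit, 23.1% of shared regions held it. TGTTTGC ends in TTGC, with which this element begins, and the part of such overlap in the TGTTTGC shares was not tested.

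**Figure D3:**
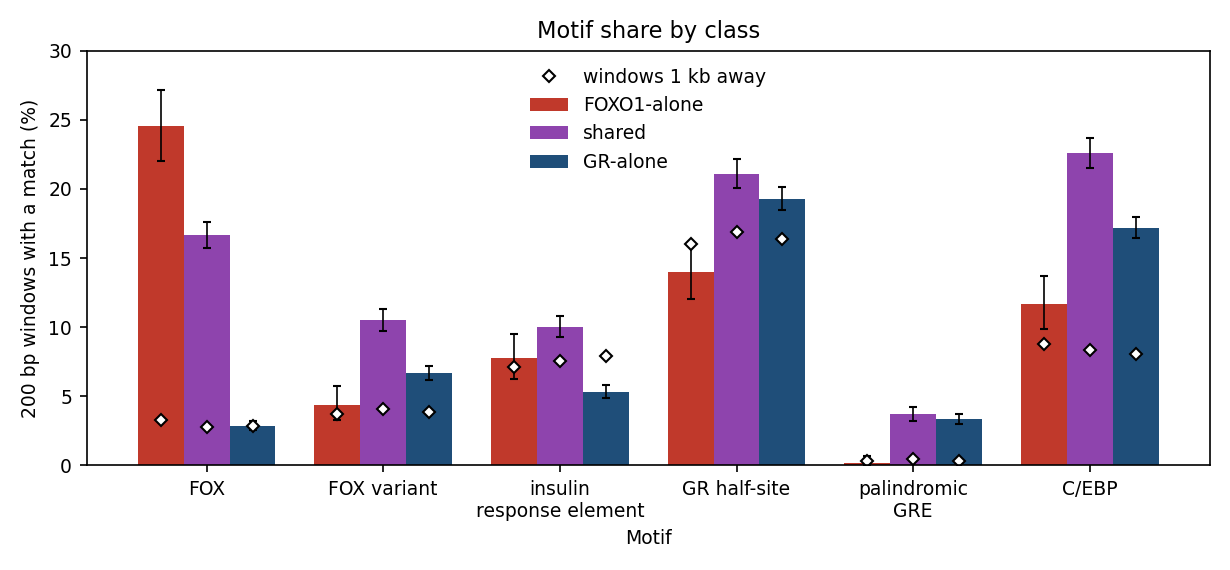
Share (%) of 200 bp windows around the summit with a match to each motif in FOXO1-alone, shared and GR-alone regions. Windows are centred on the FOXO1 summit in FOXO1-alone and shared regions and on the GR summit in GR-alone sites. Bars carry 95% exact intervals, and diamonds give the share in windows 1 kb away. TGTTTAC (FOX) stands above its flanks in both FOXO1 classes (24.6% and 16.6%) and close to them in GR-alone sites as a whole (2.87%), where the variant TGTTTGC is above its flanks (6.66%).

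Inside shared regions the motifs followed the factor that was strong. Regions were split into terciles by FOXO1 percentile and by mean GR percentile. TGTTTAC rose from 9.68% in the weakest FOXO1 tercile to 26.9% in the strongest, and went down from 20.6% to 13.0% over the GR terciles. It was most frequent, at 38.5% of 371 regions, where FOXO1 was in its strongest and GR in its weakest tercile. The GRE ran the other way for GR, at 0.450% in the weakest and 9.60% in the strongest GR tercile. Over the FOXO1 terciles the GRE went from 2.06% to 5.38%, but within the strongest GR tercile it was 7.74%, 10.4% and 9.76%, with overlapping intervals.

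**Figure D4:**
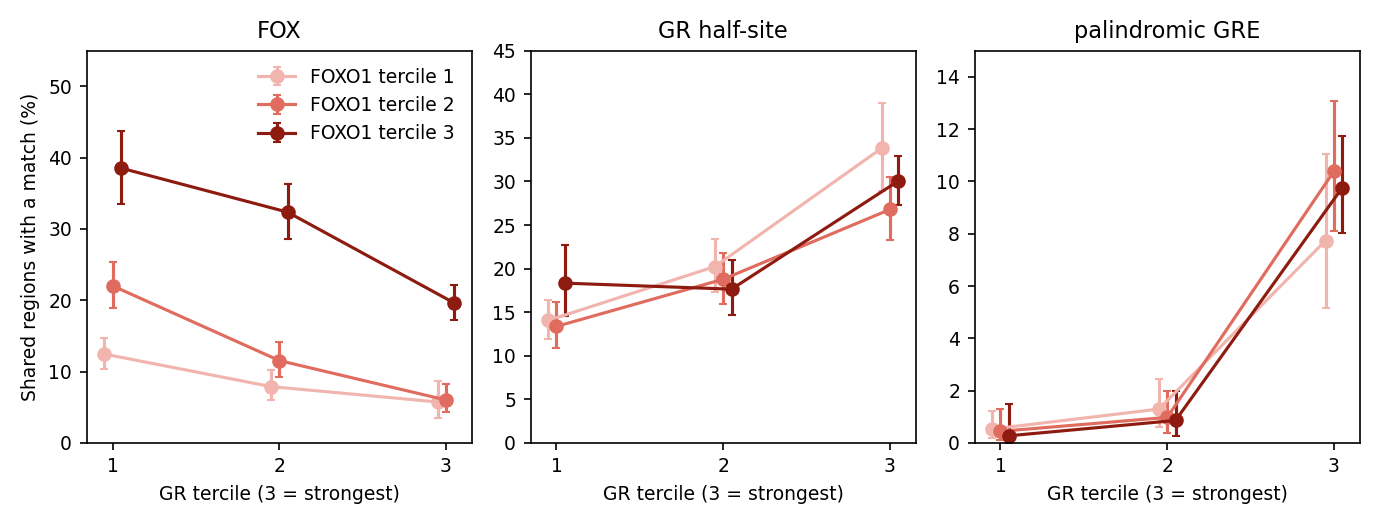
Share (%) of shared regions with TGTTTAC (FOX), the GR half-site and the palindromic GRE by GR tercile (x axis) and FOXO1 tercile (line colour), with 95% exact intervals. FOX is highest with strong FOXO1 and weak GR, 38.5%, whereas the GRE is frequent only in the strongest GR tercile.

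The summits resolved the motifs as well. Among shared regions whose FOXO1 and GR summits were at least 20 bp apart, and whose 300 bp around the midpoint held exactly 1 TGTTTAC, the motif lay nearer to the FOXO1 summit in 76.1% of 620 regions for GR replicate 1 (72.5 to 79.4, ties left out) and in 80.5% of 637 for replicate 2 (77.2 to 83.5). Its median distance was 31 bp to FOXO1, against 68 and 76 bp to GR. A GRE lay nearer to FOXO1 in 17.6% of 136 regions and 15.5% of 142 regions, and its median distance was 24 and 25 bp to GR. The insulin response element was nearer to FOXO1 in 62.5% and 64.2% of cases. TGTTTGC (46.7% and 49.7%) and the C/EBP element (48.6% and 49.2%) leaned to neither summit, since their intervals included an even split.

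At the named genes, FOXO1 was nearly always accompanied by GR. Of 83 FOXO1 regions whose nearest protein-coding start within 50 kb was 1 of the 22 genes, 77 were shared and 6 overlapped GR in 1 library, against 74.5% shared over the whole list. Sesn3 had no FOXO1 region. These genes were chosen with earlier results known, so their share is a description. Percentiles below are places within lists of unequal length and threshold. The median over shared regions was 55.2 for FOXO1, while GR regions with FOXO1 had medians of 78.4 and 76.3, so a higher GR than FOXO1 percentile is usual at a shared site and the 2 are not on 1 scale.

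Genes of gluconeogenesis held several strong shared regions. Pck1, which encodes the enzyme that commits oxaloacetate to glucose synthesis, had 6, and its promoter region stood at percentile 98.9 for FOXO1, 98.1 for GR replicate 1 and 98.6 for replicate 2. The GR summits lay 1 and 19 bp from that of FOXO1. G6pc, which releases free glucose, had 5, with the promoter region at 95.7, 90.8 and 93.1. Tat, which breaks down tyrosine, had 6, and the region 2.49 kb upstream reached 99.4 for FOXO1 and 99.8 for both GR libraries. Klf15, a regulator of amino acid breakdown, had 7 shared regions, and the strongest was at 99.8, 98.9 and 98.4.

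Genes of fat use and fuel choice held some of the highest places in the FOXO1 list. Pdk4, which restrains pyruvate oxidation, had a promoter region at percentile 99.9 for FOXO1 with 181 fragments at the summit, and at 88.7 and 88.3 for GR. Its GR summits lay 119 and 139 bp away, and TGTTTAC is found at the FOXO1 summit in the sequence printed above. Angptl4, an inhibitor of lipoprotein lipase, had an exonic region at 99.8 for FOXO1 and 99.5 for both GR libraries, with summits 4 and 11 bp away. Txnip, which limits glucose uptake, had a promoter region at 99.3 for FOXO1 and 94.0 and 93.7 for GR, with TGTTTAC and a GRE in the printed stretch.

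Insulin pathway genes also held shared regions. Foxo3, a paralogue of FOXO1, had 6, and its intronic region with TGTTTAC stood at 99.3, 99.5 and 99.4. The single region of Foxo1 itself, 22.5 kb into the gene, was at 92.2 for FOXO1 and 81.9 and 85.1 for GR. Insr, the insulin receptor, had 3 regions, with its promoter at 59.3, 51.7 and 41.2. Igfbp1, a secreted binder of insulin-like growth factors, had a promoter region at 90.7, 96.1 and 94.1 with an insulin response element.

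GR target genes held sites at the very top of the GR lists. Fkbp5, a chaperone partner of GR, had 11 shared regions, the most of any gene. The one 0.653 kb upstream of a start was at percentiles 99.99 and 99.98 for GR and 77.7 for FOXO1, with a GRE and GR summits 9 and 3 bp from the FOXO1 summit. Per1, a clock gene induced by glucocorticoids, held a forkhead and a GRE region close together. Its promoter region, with TGTTTAC, was at 94.3 for FOXO1 and 85.1 and 82.7 for GR, whereas its intronic region, with a GRE, was at 48.8 for FOXO1 and 99.9 for both GR libraries. Nr3c1, the gene of GR, had 2 shared regions of low rank, at 27.8 and 0.571 for FOXO1.

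Cry1, a repressor of the clock, had a FOXO1 region of high rank where GR was called in 1 library. At the promoter FOXO1 stood at 94.9 with 69 fragments, GR replicate 1 had no region, and replicate 2 had one at percentile 5.68 with 10 fragments. The region 5.13 kb upstream was shared, at 96.4, 88.2 and 94.4.

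**Figure D5:**
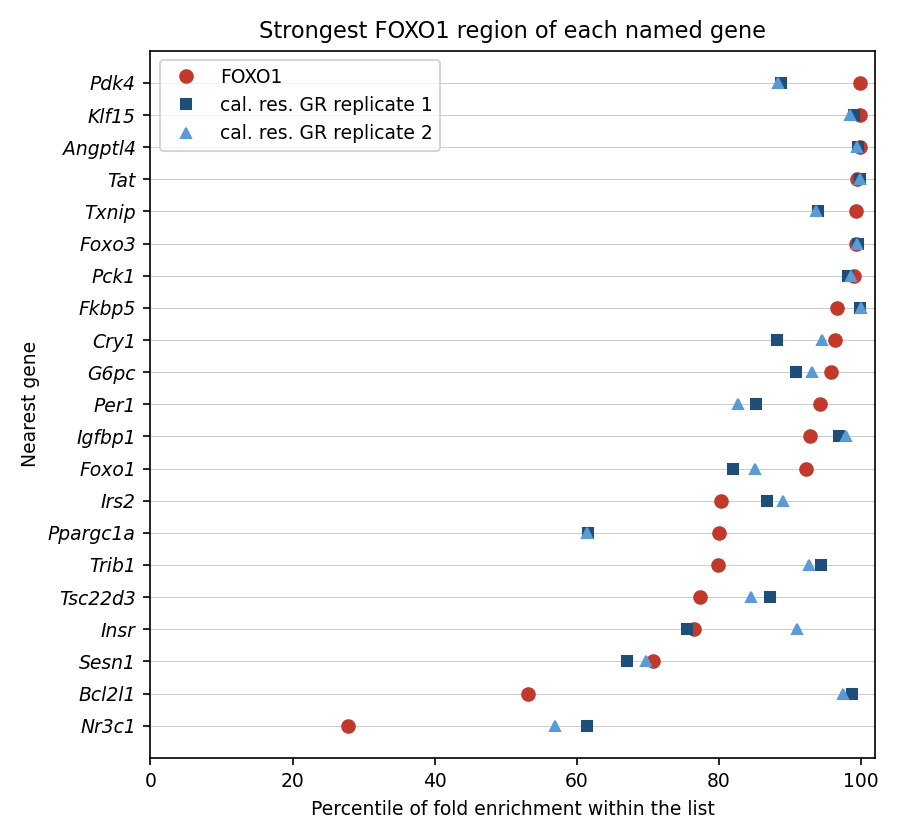
Percentile of fold enrichment within each list for the strongest FOXO1 region of each of 21 named genes with a FOXO1 region, with GR at the same place in both cal. res. libraries. FOXO1 and GR are both near the top of their lists for Angptl4, Tat and Foxo3, while Bcl2l1 stands at 53.1 for FOXO1 and at 98.6 and 97.4 for GR. The lists differ in length and threshold, so a horizontal gap is not a difference in binding.

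The 5 leading shared regions, by mean percentile over the 3 lists, were 2 in introns of Zbtb16, a transcriptional repressor, and 1 each nearest to Ttpal, Rxra and Ahcy. The first Zbtb16 region was at 99.94 for FOXO1, 99.996 for GR replicate 1 and 99.995 for replicate 2. Both this region and that upstream of Ttpal hold an insulin response element and a GRE in the printed stretch. The leading FOXO1-alone regions were nearest to Ctif, Rapgef1, Adprhl2, Khdrbs3 and Gdf15, at FOXO1 percentiles from 97.9 to 99.03, and of these the one nearest to Khdrbs3 holds TGTTTAC. The leading GR-alone sites, nearest to Slc25a51, Dynll1, Creld2, Trim2 and Map2k6, held no TGTTTAC in the 200 bp centred on the summit. Those of Creld2 and Trim2 held a GRE.

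By nearest start within 50 kb, 12.6% of 21938 protein-coding genes held a shared region, 3.86% a FOXO1-alone region and 21.9% a GR-alone site. Of the 2772 genes with a shared region, 1657 also held a GR-alone site, and of the 847 with a FOXO1-alone region, 232 also held a shared one. Of the genes with a shared region, 93 held 5 or more, and for GR-alone sites 121 genes did, with up to 13 at 1 gene. FOXO1-alone regions, of which there are fewer, did not exceed 3 at any gene. Beside Fkbp5, the genes with most shared regions were Shld1, Pim3 and Slc38a4 with 9 each, and Alb, Zfp36l1, Zmiz1 and Ghr with 8. Ext2, Bloc1s3 and Gm10717 held 3 FOXO1-alone regions each, and those at Gm10717 did not rank above percentile 0.509.

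Lists of liver genes stood above that background for shared regions. A shared region was held by 16 of 16 classic GR targets, 17 of 19 clock genes, 11 of 14 genes of gluconeogenesis and amino acid breakdown, 12 of 16 of fatty acid oxidation, 10 of 14 of lipogenesis and glycolysis, and 14 of 17 of stress resistance and growth arrest. The counts were 11 of 18 for insulin and FOXO signalling, 11 of 14 for hepatocyte transcription factors and 8 of 16 for autophagy. Among 88 ribosomal protein genes, 5 held one. FOXO1-alone regions were found at 3 clock genes (15.8%), Cry2, Dbp and Nr1d2, at 3 autophagy genes (18.8%), Becn1, Bnip3 and Tfeb, and at none of the genes of gluconeogenesis. Of these, Cry2, Dbp, Nr1d2 and Bnip3 also held shared regions, and Becn1 and Tfeb did not. The strongest FOXO1 regions of any class stood at percentiles 2.31 for Cry2, 7.51 for Dbp and 61.0 for Nr1d2. For Becn1, Bnip3 and Tfeb they stood at 48.4, 98.4 and 19.7. GR-alone sites lay at 13 of 14 genes of gluconeogenesis and at 14 of 16 classic GR targets, so these genes carried GR with and without FOXO1.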

How the data were processed

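ChIP-seq peaks of GR and FOXO1 were analysed in mouse liver (mm10). The submitters' processing notes name BWA, Picard, SAMtools, MACS2, bedtools and deepTools. The authors called GR peaks per library and FOXO1 peaks on merged libraries. The deposited columns used were fold enrichment (a ratio over local background), −log10 p and −log10 q per peak, and the summit offset. The largest q was 9.84e-06 in the FOXO1 list and 0.0998 or below in the GR lists. FOXO1 peak names ran to 18718, so the 8394 deposited peaks are a subset of those called, and the methods name a stricter cutoff for FOXO1. The q column of the FOXO1 list is a deposited score on the −log10 scale. Read totals are not given, so sequencing depth is unknown.

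Regions were matched by overlap of at least 1 bp. Summits were annotated with GENCODE transcripts, and sequences came from the RefSeq assembly of the same build, whose chromosome lengths cover every peak end. Summit pileup and background were rebuilt from fold and p, and for every region rebuilt the p agreed within 0.001. Intervals are exact Clopper-Pearson for shares and Newcombe for differences, at 95%. Libraries were compared by exact permutation. Python 3.11.15, SciPy 1.17.1 and pysam 0.24.0 were used, and the functions were tested on simulated data. Genes named are those of 22 loci, the 5 leading regions per class and the genes with most regions, with list members by counts. Members, gene lists and tests were chosen with earlier results of these data known. Replicates are separate samples by their labels.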

Additional observations from a re-analysis of the deposited data

How the results depend on the processing

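Values are given in the order share of FOXO1 regions shared (74.5% as reported), promoter share of FOXO1-alone minus shared (-0.93 points), promoter share of GR-alone minus shared (12.9 points), FOXO1 percentile gap (17.8 points), mean GR percentile gap (38.3 points), TGTTTAC in shared minus GR-alone (13.8 points), TGTTTAC in FOXO1-alone minus shared (7.92 points) and genes with a shared region (12.6%), for those that moved. With summits within 100 bp they were 56.4, 11.7, 17.5, 39.3 (GR gap), 13.2, 7.52 and 10.1. With GR regions of q at most 1e-05 they were 62.7, 8.62, 7.63, 22.6, 33.7, 13.1, 9.45 and 10.5. With equal numbers of regions they were 50.1, 12.7, 5.42, 25.8, 28.2, 12.9, 10.1 and 8.47. With regions of at most 1000 bp they were 62.5, 1.87, 14.1, 9.62, 36.7, 14.3, 4.58 and 11.6. In the stronger FOXO1 regions (upper 50%) the values were 82.5, 0.422, 40.8 (GR gap), 17.6, 1.55 and 7.78. With GR in either library they were 86.1, 10.5 (GR-alone promoters), 14.5 (FOXO1 gap), 14.5 (TGTTTAC against GR-alone), 6.55 and 14.5. An overlap of at least 50% gave 1.29 for the promoter share and 8.10 for TGTTTAC in FOXO1-alone minus shared.

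Promoters within 3 kb gave 10.9 points for GR-alone minus shared. Distal regions alone gave 37.2 for the GR gap and 13.6 and 8.99 for the 2 TGTTTAC differences, and a 100 bp window gave 10.6 and 7.70 for these. The GR summit in both classes gave 10.002. Genes within 10 kb and 100 kb gave 8.69% and 13.6%. Alternatives chosen after seeing the data were FOXO1-alone regions with no GR peak in any library, which gave -11.5 points for promoters and 2.46 for TGTTTAC, and leaving out backgrounds over 20 fragments, which gave 8.66 for TGTTTAC. The median summit distance, 35 bp over both libraries, was 32 bp for the nearest summits, 30.5 bp at equal numbers and 31 bp in the stronger FOXO1 regions.

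Without 1 GR replicate the shared share was 77.7% to 82.8%, the FOXO1-alone promoter difference -0.26 (without replicate 2) to 2.70 points (without replicate 1), the GR-alone difference 10.8 to 11.97 points, the FOXO1 gap 15.6 to 18.6, the TGTTTAC differences 14.1 to 14.2 and 7.83 to 7.90, and genes with a shared region 13.2% to 14.0%. The sign of the FOXO1-alone promoter difference thus depended on the definition of sharing, and the cause was not tested. With the replicate number as a block (replicate block), the cal. res. summit distance was 7 bp below ctrl. (a difference of -7 bp) and 5 bp below CORT (-5 bp), each with an exact permutation p of 0.5, the smallest possible. The labels do not say that the numbers pair animals. The FOXO1 list has no replicates, and sequencing depth is unknown.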
